A study of Mus musculus with 28 samples.

Results

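The 44 genes described here encode the regulators, transporters and enzymes by which heart muscle burns fatty acids and ketone bodies. They were taken by gene name from the 45513 gene rows of a raw count table, and all 44 were found and passed the filter on low counts, which left 24273 genes for testing. The table holds bulk RNA sequencing of total RNA from ventricular myocardium of 28 adult male C57BL/6 mice, 1 library a mouse. All mice ate a diet with 1% hydroxyproline, from which the body makes oxalate, and 0.5% calcium. At 6 weeks of age they had either a staged 5/6 nephrectomy, which leaves a remnant of kidney and serves as a model of chronic kidney disease (CKD), or a sham operation. On day 7 they were gavaged once with the oxalate-degrading gut bacterium Oxalobacter formigenes (Oxf) or with culture medium as vehicle. The analysed mice were 10 sham-vehicle (numbers 901 to 910), 6 CKD-vehicle (913, 914, 916, 918, 919 and 920), 5 sham-Oxf (921, 923, 925, 927 and 929) and 7 CKD-Oxf (931 to 936 and 940). The design names 10 mice a group, and the others were not analysed here. The series asks how colonization with this bacterium bears on the heart in CKD.

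Fatty acids enter the heart muscle cell, are bound by a carrier protein, are activated to acyl-CoA and cross the inner mitochondrial membrane as carnitine esters. In the matrix each round of beta-oxidation shortens the chain by a pair of carbons and hands electrons to the electron transfer flavoprotein. The adult heart draws most of its energy from this pathway and also burns ketone bodies, and the nuclear receptors of the PPAR and ERR families with their PGC-1 coactivators set the expression of many of its genes.

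Libraries held 19.8 to 65.4 M counts (M for mega). The share of 7SL RNA, the non-coding part of a particle that guides secreted proteins to the endoplasmic reticulum, spanned 2.12% to 23.6% of a library's counts. Its median was 11.4% for sham-vehicle, 15.9% for CKD-vehicle, 3.05% for sham-Oxf and 8.63% for CKD-Oxf. The sham-Oxf mouse 921 listed 15879 genes with a count, against 27128 to 33995 in the other libraries. Cardiomyocyte markers (8 genes) summed to 17320 to 45080 CPM (counts scaled for library depth), whereas the 6 liver markers summed to 0.622 to 91.9 CPM and the 6 white fat markers to 0.047 to 440.3 CPM. Bulk counts cannot tell fewer cells of a type from less RNA per cell. A clock score, the mean log2 CPM of output genes that are high near dark onset minus that of genes high near light onset, had a median of 1.896 for sham-vehicle, 0.58 for CKD-vehicle, 3.95 for sham-Oxf and 3.26 for CKD-Oxf.

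Transcription factors that drive this pathway bind DNA around the letters AGGTCA, so the promoters of the members were read for them. RefSeq windows of 300 bases (build GRCm38.p6, 250 bases before and 50 after the start of transcription) were matched for 37 of the 44 members. AGGTCA, on either strand, was present for 7 of 37 members (18.9%) against 18.1% of all 27025 genes with a window. Its holders were Acacb, Acadm, Acadvl, Cpt1a, Echs1, Rxra and Ucp3. The E-box CACGTG, which clock factors bind, was present for Pdk2 and Slc27a1 (5.41% of members, 8.09% of genes). A direct repeat of AGGTCA with 1 base between its copies, the form bound by PPAR with RXR, was in 0 of 37 (0.0396% of all windows), and the ERR element TCAAGGTCA, which contains AGGTCA, was in 0 of 37 (0.423% of windows). The D-box letters TTATGTAA and TTACGTAA were also in 0 of 37 (1.06% of windows). The shares among members were near those of all genes, and a match is a string of letters, not a site. Below, stretches are shown for Cpt1a, the gate of the carnitine shuttle and the member with the smallest p for the bacterium, for 2 matrix enzymes that rose with the 7SL share (Acadvl and Echs1), for the receptor Rxra and for Ucp3, which fell with it. Capitals mark AGGTCA, or TGACCT where it lies on the other strand.
Cpt1a (chr19:3323177-3323242, + strand): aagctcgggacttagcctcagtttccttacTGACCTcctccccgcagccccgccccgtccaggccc
Acadvl (chr11:70015480-70015545, - strand): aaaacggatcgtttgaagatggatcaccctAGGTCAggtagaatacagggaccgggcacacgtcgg
Echs1 (chr7:140116469-140116534, - strand): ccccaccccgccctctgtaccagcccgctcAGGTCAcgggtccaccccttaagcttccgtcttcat
Rxra (chr2:27709175-27709279, + strand): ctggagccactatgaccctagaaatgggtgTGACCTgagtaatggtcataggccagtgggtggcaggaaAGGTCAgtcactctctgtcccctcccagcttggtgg
Ucp3 (chr7:100472812-100472982, + strand): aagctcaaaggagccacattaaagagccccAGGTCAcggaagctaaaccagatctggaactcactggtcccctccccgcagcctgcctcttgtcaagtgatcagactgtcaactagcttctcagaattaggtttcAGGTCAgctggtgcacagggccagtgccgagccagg
Counted from the first transcribed base of the RefSeq window as 0, the motif began at position -94 in Cpt1a, -87 in Acadvl, -83 in Echs1, -87 and -48 in Rxra, and -149 and -44 in Ucp3. The Rxra window (chr2:27709042-27709341) surrounds an internal start, because the GENCODE gene begins at 27676440 on the plus strand. The Cpt1a window (chr19:3323051-3323350) also lies inside its gene, which begins at 3322334.

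Hadha and Hadhb encode the alpha and beta subunits of the mitochondrial trifunctional protein and lie head to head on chromosome 5. In the GENCODE annotation, Hadha occupies chr5:30118304-30155162 on the minus strand and Hadhb occupies chr5:30155248-30184593 on the plus strand, with 85 bases between them. This shared start region is shown because Hadhb passed a test below that Hadha did not; the difference between the subunits was not tested. It is given on the plus strand and holds none of the motifs.
Hadha-Hadhb gap (chr5:30155163-30155247, + strand): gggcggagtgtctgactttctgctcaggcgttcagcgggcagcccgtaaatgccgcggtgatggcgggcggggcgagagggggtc

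Per kilobase of transcript, the pathway's most abundant member was Fabp3, the carrier of fatty acids in heart cytoplasm, at a mean of 321.6 CPM per kb over the 28 mice. Acadl, the long-chain acyl-CoA dehydrogenase, followed at 117 CPM per kb. Hadhb stood at 91.3 CPM per kb, Acaa2, a thiolase of the matrix, at 79.8, Acadm, the medium-chain dehydrogenase, at 78.8, and Hadha at 64.2. The lowest were Acot1, a cytosolic thioesterase, at 2.99 CPM per kb and Ehhadh, the peroxisomal bifunctional enzyme, at 1.78. Matrix enzymes of beta-oxidation therefore filled most of the upper ranks and the regulators, at 4.69 (Esrrg) to 18.2 (Esrra) CPM per kb, the middle and lower ones.

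Reads that match several places limit some of these levels. Fabp3 shares sequence with the pseudogene Fabp3-ps1, whose row held 59.2% to 73.1% of the count of Fabp3, and the Hadhb pseudogene Gm13910 held 46.1% to 61.1% of the count of Hadhb. The levels of Fabp3 and Hadhb are therefore uncertain, as are those of Acot1 and Acot2, neighbouring paralogs in which 24.5% of the 50-base words of Acot2 recur in Acot1. Cpt1b, the muscle form of the carnitine palmitoyltransferase, shares 81.4% of its exon bases with the gene model Gm44502, and Etfb shares 53% with Gm45233. These models held 0 to 2 and 0 to 12 counts a library, so how reads in the shared exons were assigned bears on the level of both members, and Cpt1a and Cpt1b are not ranked. Acadvl shares 42.9% of its exon bases with Dvl2 on the opposite strand, and the use of strand in counting is not given in the sources used here.

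The members differed widely in how much they varied from mouse to mouse. Acot13, a mitochondrial thioesterase that releases long-chain fatty acids from CoA, spanned 5.79 to 65.1 CPM, an 11.3-fold range. Bdh1, the dehydrogenase that starts ketone body use, spanned a 7.77-fold range, and Pdk4, a kinase that shuts off pyruvate dehydrogenase when fat is burned, a 7.22-fold range. Acaa1a, a peroxisomal thiolase, had the narrowest range of the 44, at 1.39-fold (25.98 to 36.02 CPM). In each group 1 mouse stood at the top over the members together: the median of the members' log2 CPM relative to their 28-mouse means was highest in sham-vehicle mouse 905 (0.69), CKD-vehicle mouse 914 (1.00), sham-Oxf mouse 921 (0.13) and CKD-Oxf mouse 934 (0.44). Mice 905, 921 and 934 also had the highest 7SL share of their groups (22.2%, 11.6% and 23.0%), and mouse 914, at 21.6%, was next to mouse 916 at 23.6%. At the bottom were mice 901 (-0.48), 919 (-0.22), 923 (-0.92) and 936 (-0.62), of which 919, 923 and 936 had the lowest 7SL shares of their groups (2.58%, 2.12% and 2.25%).

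**Figure D1:**
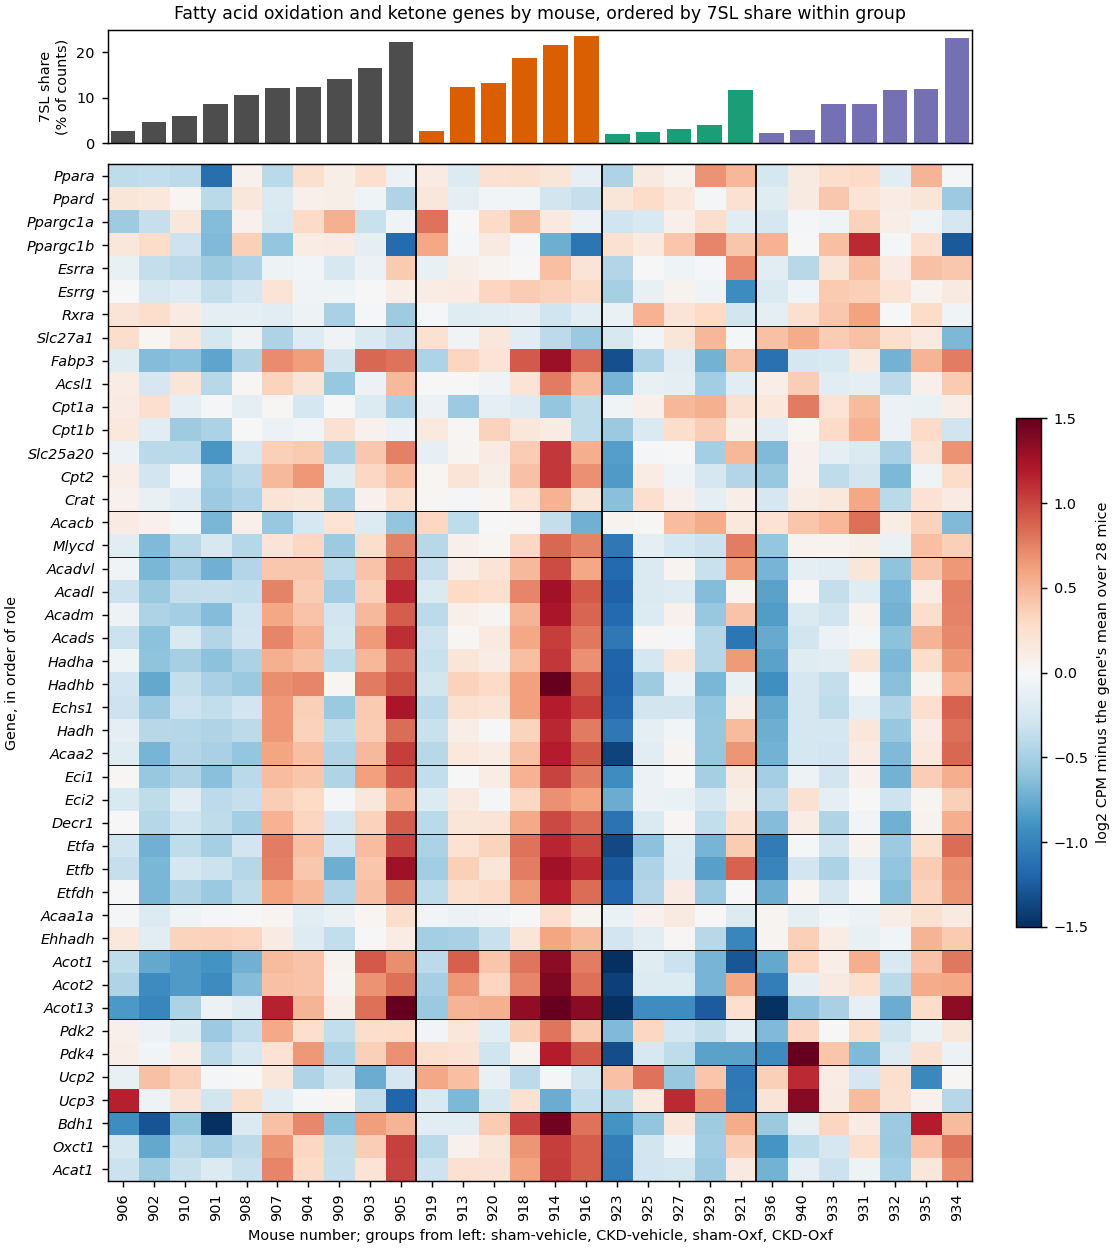
Log2 CPM of the 44 members (rows, by role) minus each gene's mean over the 28 mice, with mice in columns grouped by surgery and gavage and ordered by 7SL share within each group; the colour scale is clipped at -1.5 and 1.5. Within groups the matrix enzymes tend to be higher at a higher 7SL share, while Ucp2, Ucp3 and Cpt1a do not. Exceptions include sham-vehicle mouse 909 and CKD-Oxf mouse 932, which were low at shares of 14.15% and 11.74%.

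The first question was what the bacterium did to these genes, taken as Oxf minus vehicle averaged over both surgeries. Of the 44 members, Cpt1a, the form of the carnitine shuttle's outer membrane gate that is best known from liver, rose after Oxf, and Cpt2, which turns the carnitine ester back into acyl-CoA in the matrix, and Hadhb fell. These 3 calls compare with 2.81% of all genes called in this contrast (1.26% higher, 1.54% lower) at an adjusted p under 0.05 in the edgeR quasi-likelihood test. Differences are log2 values, and the value after ± is the standard error (SE) throughout. The median difference of the members was -0.27 on the log2 scale, against 0.003 over all genes, and 12 of 44 were above 0 (50.4% of genes). At an unadjusted p under 0.05 there were 6 members higher (11.5% of all genes) and 17 lower (11.5% of all genes). The 3 calls changed with single libraries. None was left without CKD-vehicle mouse 914 (0.449% of all genes called) or sham-Oxf mouse 929 (0.529%), and 1 was left (Cpt1a) without any of 903, 904, 905, 907, 910, 913, 916, 918, 923, 927, 931, 932, 933, 935 or 936, fits that called 0.457% to 1.86% of all genes. There were 5 without 902 (4.09% of all genes), 9 without 919 (7.83%) and 17 (5 higher, 12 lower) without CKD-Oxf mouse 934 (13.9%). The limma voom test with sample weights called 21 members (6 higher, 15 lower), against 22.0% of all genes, and the DESeq2 Wald test 9 (3 higher, 6 lower), against 8.79%.

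Cpt1a (ENSMUSG00000024900, chr19:3322334-3385733, plus strand) carried the smallest p of the 44. Cpt1a ranged over 35.2 to 58.6 CPM (median 46.9) in sham-vehicle and 32.97 to 46.6 CPM (median 40.4) in CKD-vehicle. In sham-Oxf, Cpt1a was at 57.9, 47.5, 52.1, 69.8 and 71.3 CPM, and in CKD-Oxf it ranged over 46.1 to 85.02 CPM (median 55.2). The sham-Oxf values here and below are in the order of mice 921, 923, 925, 927 and 929. All 5 sham-Oxf mice and all 7 CKD-Oxf mice lay above the median of the vehicle group with the same surgery, and the groups overlapped. The Oxf difference was 0.46 ± 0.098 (SE, adjusted p = 0.0196), a 1.37-fold rise. It was 0.56 ± 0.14 within the CKD mice (adjusted p = 0.162) and 0.35 ± 0.14 within the sham mice (adjusted p = 0.292). The call held in 26 of 28 fits that left out 1 library, and was lost without 914 (adjusted p = 0.0573) and without 929 (adjusted p = 0.0502).

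**Figure D2:**
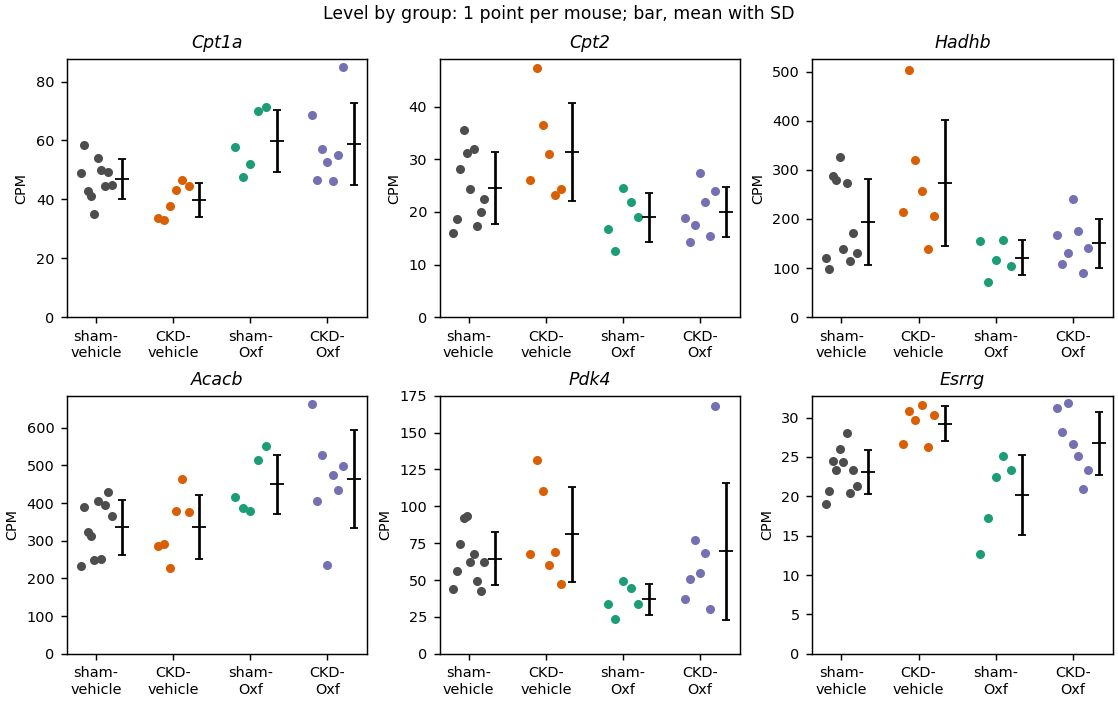
CPM of Cpt1a, Cpt2, Hadhb, Acacb, Pdk4 and Esrrg in each mouse (points) by group, with the group mean and SD as bars. For Cpt1a the Oxf groups sit higher (medians 57.9 and 55.2 CPM) than the vehicle groups (46.9 and 40.4), and in all 6 genes the groups overlap.

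Cpt2 (ENSMUSG00000028607, chr4:107903981-107923610, minus strand) went the other way. Cpt2 ranged over 16 to 35.6 CPM (median 23.4) in sham-vehicle and 23.2 to 47.3 CPM (median 28.5) in CKD-vehicle. In sham-Oxf, Cpt2 was at 16.8, 12.6, 24.6, 21.9 and 19.1 CPM, and in CKD-Oxf it ranged over 14.3 to 27.47 CPM (median 18.8). The highest values were in CKD-vehicle, whose lowest mouse (23.2 CPM) stood above the median of each other group except sham-vehicle (23.4 CPM). Its Oxf difference was -0.51 ± 0.14 (SE, adjusted p = 0.0478), and within CKD it was -0.66 ± 0.20 (SE, adjusted p = 0.214). Hadhb was the matrix enzyme with the largest Oxf difference. Hadhb ranged over 98.7 to 326 CPM (median 155) in sham-vehicle and 139 to 504 CPM (median 235) in CKD-vehicle. In sham-Oxf, Hadhb was at 155, 72.5, 116, 158 and 104 CPM, and in CKD-Oxf it ranged over 89.01 to 241 CPM (median 142). The top of the CKD-vehicle range was mouse 914, at 503.9 CPM. The Oxf difference of Hadhb was -0.77 ± 0.21 (SE, adjusted p = 0.0473), and that of its partner Hadha, -0.31 ± 0.20 (SE, adjusted p = 0.383), did not pass. Cpt2 and Hadhb were each called in 10 of the 28 fits without 1 library.

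Among the other steps of uptake and the carnitine shuttle, Fabp3 had the lowest Oxf difference. Fabp3 ranged over 137 to 431 CPM (median 202) in sham-vehicle and 172 to 578 CPM (median 361) in CKD-vehicle. In sham-Oxf, Fabp3 was at 319, 94.7, 172, 212 and 145 CPM, and in CKD-Oxf it ranged over 109 to 403 CPM (median 202). These ranges overlapped, and the difference of -0.55 ± 0.24 (SE, adjusted p = 0.161) did not pass. Slc27a1, a fatty acid transporter of the plasma membrane, stood at 0.28 ± 0.12 (SE, adjusted p = 0.144). Slc27a1 ranged over 109.6 to 182 CPM (median 138) in sham-vehicle and 103 to 177 CPM (median 140.4) in CKD-vehicle. In sham-Oxf, Slc27a1 was at 149.7, 128, 147, 172 and 215 CPM, and in CKD-Oxf it ranged over 94.98 to 223 CPM (median 197). Acsl1, the main acyl-CoA synthetase of heart, and Slc25a20, the carnitine-acylcarnitine carrier, had differences of -0.28 ± 0.12 and -0.27 ± 0.18. Cpt1b and Crat, the carnitine acetyltransferase, were near 0, at 0.063 ± 0.11 and -0.013 ± 0.11.

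Malonyl-CoA blocks carnitine palmitoyltransferase 1, and the members that make and remove it did not pass in the edgeR fit used throughout. Acacb, the mitochondrial acetyl-CoA carboxylase that makes it, was at 0.44 ± 0.13 (SE, adjusted p = 0.0635). Acacb passed with limma voom (adjusted p = 0.00395), with DESeq2 (0.0303) and in edgeR with at least 10 counts in every library (0.0427). It also passed in edgeR without mouse 919 (0.0298) or 934 (0.0102), and not under the other settings or without any other mouse. Acacb ranged over 233 to 430.3 CPM (median 345) in sham-vehicle and 228 to 465 CPM (median 333) in CKD-vehicle. In sham-Oxf, Acacb was at 416, 388, 378, 515 and 551 CPM, and in CKD-Oxf it ranged over 236 to 664 CPM (median 474). All 5 sham-Oxf values were above the sham-vehicle median of 345 CPM, and those groups overlapped. Mlycd, the decarboxylase that breaks malonyl-CoA down, had an Oxf difference of -0.16 ± 0.18 (SE, adjusted p = 0.636). Mlycd ranged over 11.4 to 30.5 CPM (median 15.7) in sham-vehicle and 13.5 to 32.9 CPM (median 20.7) in CKD-vehicle. In sham-Oxf, Mlycd was at 30.7, 8.56, 16.4, 15.1 and 14.4 CPM, and in CKD-Oxf it ranged over 12.1 to 24.6 CPM (median 18.8).

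The 9 genes of the matrix cycle all had negative Oxf differences, from -0.77 ± 0.21 for Hadhb to -0.25 ± 0.20 for Acadvl, the very long-chain dehydrogenase, and Hadhb alone passed. Acadvl ranged over 53.7 to 170 CPM (median 76.3) in sham-vehicle and 69.5 to 174 CPM (median 113) in CKD-vehicle. In sham-Oxf, Acadvl was at 137, 39.4, 75.9, 90.9 and 70.2 CPM, and in CKD-Oxf it ranged over 54.4 to 139 CPM (median 80.5). The groups overlapped for Acadvl, with the lowest mouse in sham-Oxf. Acadl (-0.61 ± 0.21, adjusted p = 0.0843), the hydratase Echs1 (-0.57 ± 0.21) and the short-chain dehydrogenase Acads (-0.54 ± 0.21) were the next lowest. Acadm, the short-chain hydroxyacyl-CoA dehydrogenase Hadh and Acaa2 were at -0.42 ± 0.21, -0.35 ± 0.20 and -0.37 ± 0.23. Unsaturated fatty acids need extra enzymes that move or reduce double bonds, and these 3 had differences from -0.45 ± 0.18 (Decr1, the dienoyl-CoA reductase) to -0.26 ± 0.12 (Eci2, an enoyl-CoA isomerase), with Eci1 at -0.38 ± 0.19. Decr1 ranged over 28.9 to 77.2 CPM (median 37.8) in sham-vehicle and 31.04 to 82.02 CPM (median 54.2) in CKD-vehicle. In sham-Oxf, Decr1 was at 48.3, 19.2, 35.5, 41.9 and 31.9 CPM, and in CKD-Oxf it ranged over 25.01 to 60.0 CPM (median 40.2). Eci2 was steadier than Decr1. Eci2 ranged over 19.4 to 37.2 CPM (median 23.8) in sham-vehicle and 22.1 to 40.9 CPM (median 29.7) in CKD-vehicle. In sham-Oxf, Eci2 was at 26.99, 15.2, 24, 23.8 and 21.2 CPM, and in CKD-Oxf it ranged over 19.3 to 32.5 CPM (median 25.3).

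Electrons from the acyl-CoA dehydrogenases pass to the flavoprotein of Etfa and Etfb and on to the respiratory chain through Etfdh. Their Oxf differences were alike in size, -0.56 ± 0.22, -0.54 ± 0.25 and -0.49 ± 0.20, and none passed (adjusted p of 0.13, 0.191 and 0.136). Etfa ranged over 41.1 to 136 CPM (median 55.4) in sham-vehicle and 48.7 to 149 CPM (median 102) in CKD-vehicle. In sham-Oxf, Etfa was at 87.9, 26.6, 44.2, 59.6 and 41.6 CPM, and in CKD-Oxf it ranged over 32.8 to 121 CPM (median 66.9). CKD-vehicle held the highest Etfa value and sham-Oxf the lowest. Etfdh ranged over 62.9 to 177 CPM (median 89.6) in sham-vehicle and 77.7 to 229 CPM (median 141) in CKD-vehicle. In sham-Oxf, Etfdh was at 100.5, 44.5, 74.4, 111 and 69.5 CPM, and in CKD-Oxf it ranged over 61.05 to 162 CPM (median 101). The order of the group medians of Etfdh was CKD-vehicle, CKD-Oxf, sham-vehicle and sham-Oxf, with overlap between neighbours.

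Thioesterases split acyl-CoA into free acid and CoA. Acot13 (ENSMUSG00000006717, chr13:24817948-24831540, minus strand) had the largest Oxf difference of the 44, -1.08 ± 0.32 (SE, adjusted p = 0.0556), just short of the threshold. Acot13 ranged over 10.4 to 65.1 CPM (median 20.6) in sham-vehicle and 13.9 to 65.1 CPM (median 40.7) in CKD-vehicle. In sham-Oxf, Acot13 was at 24.4, 5.79, 10.7, 10.7 and 8.59 CPM, and in CKD-Oxf it ranged over 7.34 to 51.8 CPM (median 14.7). Mouse 921 stood far above the next sham-Oxf mouse (10.7 CPM), and mouse 934, at 51.8 CPM, far above the next CKD-Oxf mouse (24.8 CPM). Acot13 passed without any of 902, 906, 909, 919, 921 or 934 (adjusted p of 0.0062 to 0.048). Acot1 and the mitochondrial Acot2 were at -0.62 ± 0.22 and -0.43 ± 0.24. Acot2 ranged over 12.2 to 41.8 CPM (median 20.8) in sham-vehicle and 16.6 to 62.4 CPM (median 38.1) in CKD-vehicle. In sham-Oxf, Acot2 was at 35.1, 8.92, 20.4, 20.4 and 14.5 CPM, and in CKD-Oxf it ranged over 11.4 to 35.2 CPM (median 25.9).

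Neither peroxisomal enzyme passed for Oxf. Acaa1a ranged over 25.98 to 36.02 CPM (median 29.5) in sham-vehicle and 28.4 to 35.8 CPM (median 29.6) in CKD-vehicle. In sham-Oxf, Acaa1a was at 26.1, 28.1, 31.5, 32.9 and 30.1 CPM, and in CKD-Oxf it ranged over 27.4 to 35.1 CPM (median 31.01). Its Oxf difference of 0.0082 ± 0.062 was the smallest of all members and turned below 0 under 3 other settings and without any of 8 single libraries. Ehhadh had the smallest p among the members for a difference of the Oxf effect between surgeries, and that did not pass (0.55 ± 0.27 (SE, adjusted p = 1.0) for the interaction). Ehhadh ranged over 3.99 to 6.52 CPM (median 5.59) in sham-vehicle and 3.60 to 7.74 CPM (median 4.95) in CKD-vehicle. In sham-Oxf, Ehhadh was at 2.61, 4.21, 4.60, 5.21 and 3.85 CPM, and in CKD-Oxf it ranged over 4.75 to 7.30 CPM (median 5.54). Its lowest value was in sham-Oxf mouse 921.

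Pyruvate dehydrogenase kinases hold back glucose oxidation. Pdk4 was at -0.51 ± 0.21 (SE, adjusted p = 0.146) and Pdk2 at -0.26 ± 0.13 (SE, adjusted p = 0.236). Pdk4 ranged over 42.3 to 93.6 CPM (median 62.5) in sham-vehicle and 47.5 to 131 CPM (median 68.2) in CKD-vehicle. In sham-Oxf, Pdk4 was at 33.5, 23.2, 49.3, 44.9 and 33.5 CPM, and in CKD-Oxf it ranged over 30.3 to 168 CPM (median 54.9). Of the 5 sham-Oxf mice, 3 lay below the lowest sham-vehicle mouse. The CKD-Oxf mouse 940, at 168 CPM, was the highest of all 28, and without it the difference of Pdk4 passed (-0.71, adjusted p = 0.0406). Pdk2 ranged over 48.9 to 105 CPM (median 70.9) in sham-vehicle and 63.9 to 124 CPM (median 85.8) in CKD-vehicle. In sham-Oxf, Pdk2 was at 63.7, 45.1, 88.3, 59.2 and 55.6 CPM, and in CKD-Oxf it ranged over 44.9 to 88.5 CPM (median 70.7).

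The uncoupling proteins of the inner mitochondrial membrane, Ucp2 and the muscle form Ucp3, had positive differences of 0.17 ± 0.19 and 0.45 ± 0.22 that did not pass (adjusted p of 0.645 and 0.205). Ucp3 ranged over 5.05 to 25.8 CPM (median 11.1) in sham-vehicle and 6.88 to 13.4 CPM (median 9.33) in CKD-vehicle. In sham-Oxf, Ucp3 was at 5.50, 8.65, 12.7, 24.97 and 18.1 CPM, and in CKD-Oxf it ranged over 8.56 to 29.5 CPM (median 13.1). Mice 906, 927 and 940 were high, at 25.8, 24.97 and 29.5 CPM. Ucp2 ranged over 36.2 to 82.1 CPM (median 57.8) in sham-vehicle and 46.1 to 90.2 CPM (median 58.1) in CKD-vehicle. In sham-Oxf, Ucp2 was at 28.9, 82.1, 107, 40.9 and 80.5 CPM, and in CKD-Oxf it ranged over 30.9 to 132 CPM (median 65.3). The ketone genes were all below 0, with Bdh1 at -0.25 ± 0.25, Oxct1, the CoA transferase that activates acetoacetate, at -0.39 ± 0.21, and Acat1, the thiolase that splits acetoacetyl-CoA, at -0.52 ± 0.18 (SE, adjusted p = 0.0987). Bdh1 ranged over 8.85 to 41.4 CPM (median 19.1) in sham-vehicle and 22.4 to 68.7 CPM (median 38.4) in CKD-vehicle. In sham-Oxf, Bdh1 was at 36.99, 13.5, 16.6, 28.4 and 17.4 CPM, and in CKD-Oxf it ranged over 17.1 to 57.2 CPM (median 27.4). CKD-vehicle held the highest Bdh1 value, in mouse 914. Acat1 ranged over 46.8 to 137 CPM (median 56.8) in sham-vehicle and 54.8 to 141 CPM (median 91.6) in CKD-vehicle. In sham-Oxf, Acat1 was at 74.4, 32.8, 55.8, 56.8 and 46.8 CPM, and in CKD-Oxf it ranged over 41.5 to 110.4 CPM (median 62.4).

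Of the 7 regulators, 0 passed for Oxf, and their median difference was 0.18. The coactivator Ppargc1b was highest at 0.45 ± 0.19 (SE, adjusted p = 0.158). Ppargc1b ranged over 21.8 to 61.7 CPM (median 47.8) in sham-vehicle and 22.8 to 72.3 CPM (median 47.4) in CKD-vehicle. In sham-Oxf, Ppargc1b was at 64.6, 56.6, 53.7, 64.4 and 80.4 CPM, and in CKD-Oxf it ranged over 20.1 to 105 CPM (median 57.5). All 5 sham-Oxf mice exceeded the sham-vehicle median of 47.8 CPM, with overlap. Rxra, the partner of the PPAR receptors, was at 0.30 ± 0.097 (SE, adjusted p = 0.0695), Ppara, the main fatty acid receptor of heart, at 0.22 ± 0.13 and Ppard at 0.18 ± 0.092. The estrogen-related receptor Esrra was at 0.15 ± 0.12, the coactivator Ppargc1a at -0.15 ± 0.12 and Esrrg at -0.16 ± 0.091.

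Other measures moved with the gavage as well. Of the 9 clock output genes 7 were higher after Oxf (median 1.18) and of the 5 genes high near light onset 4 were lower (median -0.87). Of 8 cardiomyocyte markers 1 was lower, the troponin Tnni3 (-0.72), and the median of the 8 was -0.50. Of 5 fibroblast markers, all below 0 (median -0.63), 1 was lower, the matrix proteoglycan Lum (-0.85). All 5 tested skeletal muscle markers were lower at an unadjusted p under 0.05 (median -2.67) and 0 passed. Summed over the list, their group medians were 3.31 CPM for sham-vehicle (highest mouse 487.6) and 2.35 CPM for CKD-vehicle (highest 565). They were 2.655 CPM for sham-Oxf (highest 24.7) and 3.30 CPM for CKD-Oxf (highest 3.51). These medians were close, while the highest sums were in vehicle mice. Liver markers had 2 genes higher, Alb (2.67) and Serpina1a (2.58). With the log2 7SL share as a covariate, 0 members were called (0.593% of all genes), 4 were higher and 2 lower at an unadjusted p under 0.05, and their median was -0.042. In that fit Cpt1a was at 0.34 ± 0.098 (SE, adjusted p = 0.102), Cpt2 at -0.36 ± 0.15 (SE, adjusted p = 0.234), Hadhb at -0.32 ± 0.18 (SE, adjusted p = 0.333) and Acot13 at -0.36 ± 0.17 (SE, adjusted p = 0.284). With the clock score as a covariate 0 were called (0% of all genes), 3 were higher and 1 lower at an unadjusted p under 0.05, and the median was 0.067. There Cpt1a was at 0.38 ± 0.16 (SE, adjusted p = 0.703), Cpt2 at -0.26 ± 0.24 (0.85) and Hadhb at -0.20 ± 0.33 (0.92). Each SE was wider than with the 7SL share. The score spanned -0.40 to 1.91 in CKD-vehicle and 1.96 to 3.80 in CKD-Oxf. Among CKD mice this fit can therefore hardly tell score from gavage. Among sham mice the score overlapped, at 0.62 to 3.88 in sham-vehicle and 2.93 to 4.21 in sham-Oxf. With mouse number centred within groups, Cpt1a alone was called (2.29% of all genes were), at 0.45 ± 0.092 (SE, adjusted p = 0.0148). Centring removes the differences in number between groups, so that fit cannot adjust the Oxf difference for them. Clock score and 7SL share both differ between the gavages, and their part in the Oxf differences was not tested beyond these fits. Of 53 other genes of fatty acid and ketone metabolism, 1 was higher after Oxf, the thioesterase Acot11 (0.37 ± 0.09, SE, adjusted p = 0.0292), none was lower, and their median was -0.091.

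**Figure D3:**
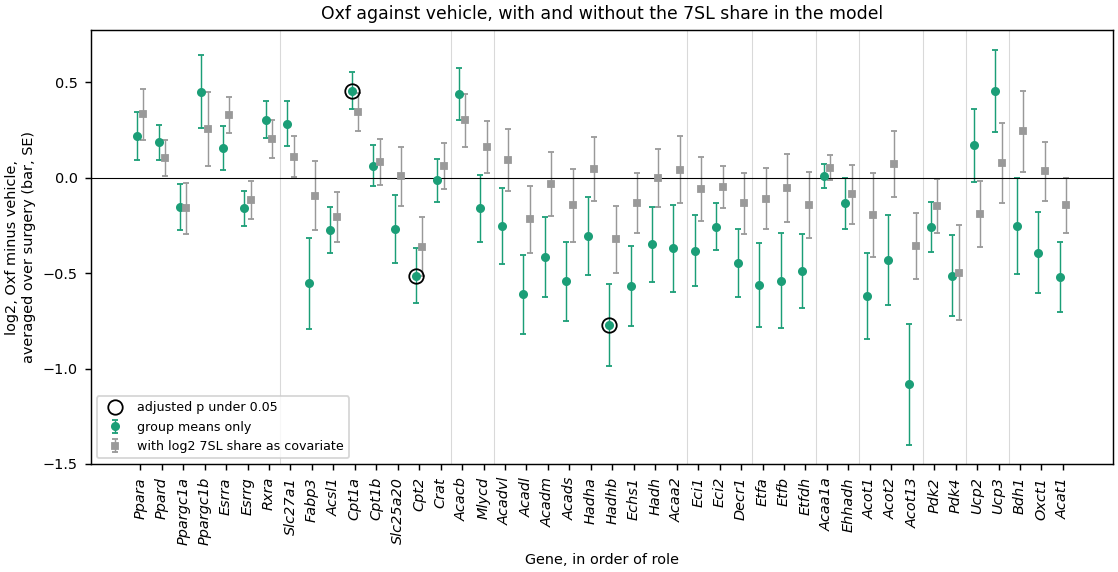
Oxf minus vehicle averaged over surgery (log2, ± SE) for each member without a covariate and with the log2 7SL share as covariate; circled points have an adjusted p under 0.05. With the covariate the matrix enzymes move toward 0 and the median goes from -0.27 to -0.042, while Cpt1a goes from 0.46 to 0.34.

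Within CKD alone, the comparison named by the series title, 0 members were called for CKD-Oxf minus CKD-vehicle, against 0.0330% of all genes. The median of the members was -0.39 (0.029 over all genes), with 13 of 44 above 0 (53.2% of genes). With the clock score as a covariate that median was 0.11, with 30 of 44 above 0. In the same contrast 4 of 9 clock output genes were higher (median 1.498). At an unadjusted p under 0.05, all 5 tested liver markers were higher (median 2.90), all 5 tested skeletal muscle markers lower (median -2.97) and 3 of 8 cardiomyocyte markers lower (median -0.60). The summed skeletal muscle markers had a median of 2.35 CPM in CKD-vehicle (highest mouse 565 CPM). In CKD-Oxf that median was 3.30 CPM (highest 3.51 CPM), so the typical CKD-Oxf mouse was not lower. The part of the clock genes or of these markers in the differences was not tested beyond that fit. At an unadjusted p under 0.05, 5 members were higher (6.89% of genes) and 7 lower (6.20%). The smallest p was that of Cpt1a (0.56 ± 0.14 (SE, adjusted p = 0.162)). The higher ones besides Cpt1a were Rxra (0.37 ± 0.14), Acacb (0.46 ± 0.19), Slc27a1 (0.37 ± 0.17) and Ucp3 (0.69 ± 0.31). The lower ones were Cpt2, Hadhb (-0.86 ± 0.30), Acadl (-0.70 ± 0.29), Acot13 (-0.98 ± 0.44), Etfb (-0.74 ± 0.35), Acat1 (-0.58 ± 0.26) and Decr1 (-0.57 ± 0.25). The DESeq2 Wald test called Cpt1a alone (adjusted p = 0.0312; 0.783% of all genes), and limma voom called 15 members (4 higher, 11 lower), against 6.53% of all genes higher and 8.46% lower. Without CKD-Oxf mouse 934, edgeR called 4 (Cpt1a higher, with Acot13, Cpt2 and Hadhb lower), against 3.83% of all genes.

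Within sham mice, 0 members were called for sham-Oxf minus sham-vehicle, as for 0% of all genes. Limma voom and DESeq2 also called 0 members, against 0.140% and 0.540% of all genes. At an unadjusted p under 0.05, 3 members were higher (6.60% of genes) and 6 lower (5.98%), and the median of the members was -0.22 (-0.043 over all genes), with 14 of 44 above 0 (45.1% of genes). That median was 0.072, with 30 of 44 above 0, when the 7SL share was a covariate, and 0.038, with 25 of 44 above 0, when the clock score was. The higher ones were Cpt1a, Acacb (0.42 ± 0.19) and Ppara (0.40 ± 0.18). Pdk4 had the smallest p (-0.81 ± 0.31 (SE, adjusted p = 0.278)), followed among the lower ones by Acot13 (-1.18 ± 0.46), Acot1 (-0.76 ± 0.32), Hadhb (-0.68 ± 0.30), Acads (-0.64 ± 0.30) and Ehhadh (-0.41 ± 0.19). Both Oxf contrasts have their own vehicle mice. The interaction, which tests whether they differ, called 0 members (0% of genes) with each of edgeR, limma voom and DESeq2, and 0 members had an unadjusted p under 0.05 (3.55% of genes). Its values were above 0 for 13 of 44 members (58.7% of genes).

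The second question was what nephrectomy did to these genes. For CKD-vehicle minus sham-vehicle, 0 members passed, against 0.00824% of all genes. The median difference was 0.34 (-0.035 over all genes), and 38 of 44 were above 0, against 44.4% of all genes. The members moved together from mouse to mouse, so their signs are not independent. At an unadjusted p under 0.05, 5 members were higher (2.09% of genes) and 0 lower (2.37%). They were Esrrg, Bdh1 (0.76 ± 0.33), Acot1 (0.68 ± 0.29), Acot2 (0.67 ± 0.30) and Ppargc1a (0.37 ± 0.16). DESeq2 called 0 (0.119% of all genes) and limma voom 1, Esrrg (adjusted p = 0.0472, with 0.383% of all genes called). The 7SL share was higher in CKD-vehicle than in sham-vehicle at the median (15.9% against 11.4%) and the clock score lower (0.58 against 1.896). The median of the members was 0.21 with the 7SL share as a covariate and 0.047 with the clock score, where 31 of 44 were above 0. Cell markers moved in this contrast too, none past the threshold. All 8 cardiomyocyte markers were above 0 (median 0.46, 2 at an unadjusted p under 0.05), all 6 white fat markers below 0 (median -1.49) and all 5 tested liver markers lower at an unadjusted p under 0.05 (median -2.53). The part of the share, the score or these markers in the difference was not tested beyond these fits.

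Esrrg, an orphan nuclear receptor that drives mitochondrial genes in heart, had the smallest p for surgery. Esrrg ranged over 19.01 to 28.02 CPM (median 23.4) in sham-vehicle and 26.3 to 31.6 CPM (median 29.97) in CKD-vehicle. In sham-Oxf, Esrrg was at 12.7, 17.2, 22.5, 25.2 and 23.3 CPM, and in CKD-Oxf it ranged over 20.9 to 31.8 CPM (median 26.6). The lowest CKD-vehicle mouse (26.3 CPM) stood above 9 of the 10 sham-vehicle mice, all but mouse 907 (28.02 CPM). The difference was 0.34 ± 0.12 (SE, adjusted p = 0.955) with vehicle, 0.41 ± 0.14 (SE, adjusted p = 0.361) with Oxf and 0.37 ± 0.091 (SE, adjusted p = 0.23) averaged over both. With the 7SL share as a covariate the average was 0.34 ± 0.096 (SE, adjusted p = 0.169).

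In the colonized mice, CKD-Oxf minus sham-Oxf, 0 members passed with edgeR (0% of all genes), limma voom (0%) and DESeq2 (0.412%). An unadjusted p under 0.05 was found for 5 members, all higher in CKD-Oxf, and for 8.23% of genes in either direction. Those 5 were Esrrg, Acot1 (0.95 ± 0.34), Pdk4 (0.91 ± 0.32), Ehhadh (0.52 ± 0.20) and Acsl1 (0.37 ± 0.18). Differences above 0 numbered 40 of 44 (56.7% of genes), with a median of 0.17 (0.047 over all genes). Averaged over gavage, surgery gave 0 calls (0% of genes), a median of 0.25 (-0.0007 over all genes), 39 of 44 differences above 0 (49.9% of genes), and 8 members higher at an unadjusted p under 0.05 (5.17% of genes) with 0 lower (5.45%). DESeq2 called Acot1 and Esrrg there, both higher (0.0989% of all genes higher, 0.367% lower), and limma voom Esrrg (0.519%). With the 7SL share as a covariate, the median for CKD-Oxf minus sham-Oxf was -0.022.

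No member separated any of the 4 pairs of groups without overlap. Over all genes, groups that did not overlap made up 0.0330% (higher) and 0.0948% (lower) for CKD-vehicle against sham-vehicle, and 0.218% and 0.260% for CKD-Oxf against CKD-vehicle. They made up 0.0989% and 0.128% for sham-Oxf against sham-vehicle, and 0.144% and 0.128% for CKD-Oxf against sham-Oxf.

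The third question was how the members followed the 7SL share of a library within groups. Here 30 of 44 passed, 25 rising and 5 falling with the share, against 37.9% of all genes (16.8% rising, 21.1% falling). The slope is the log2 change per doubling of the share, and its median was 0.28 over the members and -0.053 over all genes, with 35 of 44 members above 0 (41.1% of genes). All 9 matrix cycle genes rose, with slopes of 0.33 (Acads) to 0.41 (Acaa2), as did the 3 double bond enzymes (0.19 to 0.29), the 3 electron transfer genes (0.32 to 0.49), the 3 thioesterases (0.34 to 0.71) and the 3 ketone genes (0.35 to 0.46). Fabp3 (0.45 ± 0.079), Slc25a20 (0.27 ± 0.067), Mlycd (0.32 ± 0.06) and Esrra (0.19 ± 0.043) rose too. The 5 that fell were both uncoupling proteins, Slc27a1, Ppargc1b (-0.22 ± 0.089 (SE, adjusted p = 0.0465)) and Cpt1a (-0.11 ± 0.044 (SE, adjusted p = 0.0404)). Neither peroxisomal enzyme and neither kinase passed, with slopes of 0.042 ± 0.029 for Acaa1a, 0.041 ± 0.067 for Ehhadh, 0.10 ± 0.062 for Pdk2 and 0.012 ± 0.10 for Pdk4. Cpt2, at 0.14 ± 0.066, did not pass either, nor did Cpt1b, Crat, Acsl1, Acacb or the other 5 regulators.

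**Figure D4:**
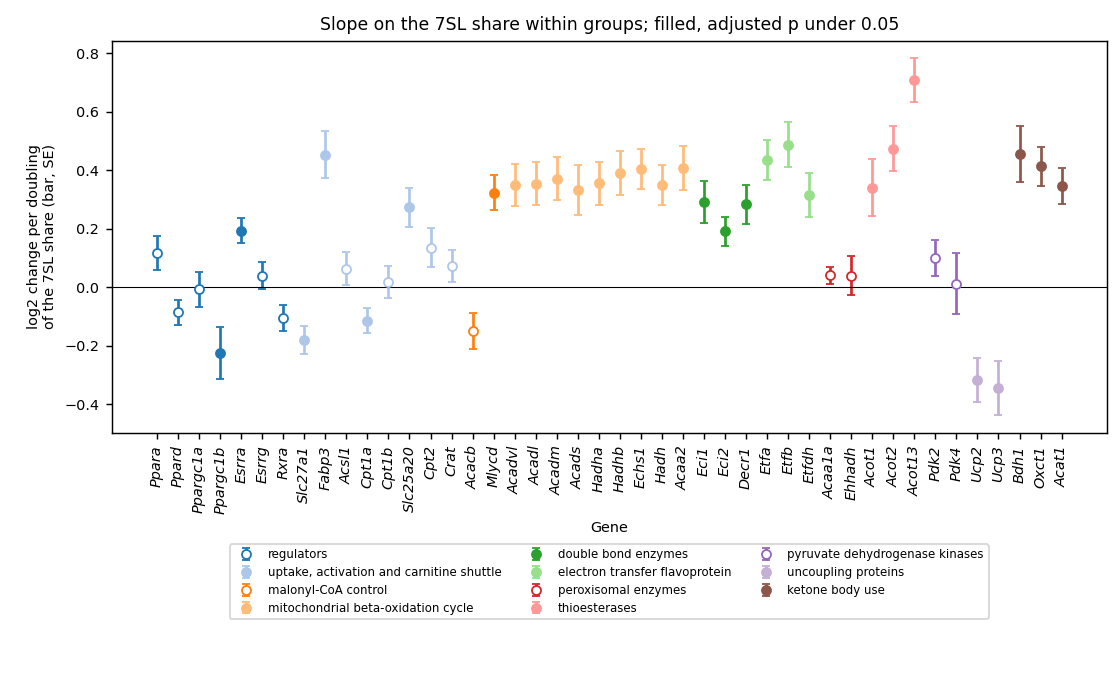
Slope of each member on the log2 7SL share within groups (log2 change per doubling of the share, ± SE), by role; filled points have an adjusted p under 0.05. Acot13 is the highest (0.71) and Ucp3 the lowest (-0.34).

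Acot13 had the steepest slope, 0.71 ± 0.075 (SE, adjusted p = 1.33e-07). It was at 11.2 CPM in sham-vehicle mouse 906 (7SL share 2.61%) and 65.1 CPM in mouse 905 (22.2%). In CKD-vehicle it was at 13.9 CPM in mouse 919 (2.58%) and 52.2 CPM in mouse 916 (23.6%). Its level was 5.79 CPM in sham-Oxf mouse 923 (2.12%) and 24.4 CPM in mouse 921 (11.6%), and 7.34 CPM in CKD-Oxf mouse 936 (2.25%) and 51.8 CPM in mouse 934 (23.0%). The mouse with the highest share thus exceeded the one with the lowest in all 4 groups. Etfb and Etfa came next, with slopes of 0.49 ± 0.078 (SE, adjusted p = 3.62e-05) and 0.44 ± 0.07 (SE, adjusted p = 3.91e-05). Etfb ranged over 6.80 to 27.3 CPM (median 9.24) in sham-vehicle and 7.88 to 27 CPM (median 16.9) in CKD-vehicle. In sham-Oxf, Etfb was at 20.96, 4.73, 8.18, 9.89 and 6.43 CPM, and in CKD-Oxf it ranged over 5.70 to 18.4 CPM (median 9.24). Etfa stood at 55.3 and 136 CPM in mice 906 and 905, and at 26.6 and 87.9 CPM in mice 923 and 921.

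Ucp2, Ucp3 and Slc27a1 ran the other way. The slopes were -0.32 ± 0.076 (SE, adjusted p = 0.00195) for Ucp2, -0.34 ± 0.093 (SE, adjusted p = 0.00505) for Ucp3 and -0.18 ± 0.048 (SE, adjusted p = 0.00476) for Slc27a1. Ucp3 was at 25.8 CPM in mouse 906 and 5.05 CPM in mouse 905, which have the lowest and the highest share in sham-vehicle. In CKD-Oxf, Slc27a1 was at 206 CPM in mouse 936 and 94.98 CPM in mouse 934. With limma voom the slope of Ucp3 was -0.19 ± 0.089 (SE, adjusted p = 0.0821) and no longer passed. For Ucp3 in sham-Oxf the mouse with the highest share (921, 5.50 CPM) was also the lowest.

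**Figure D5:**
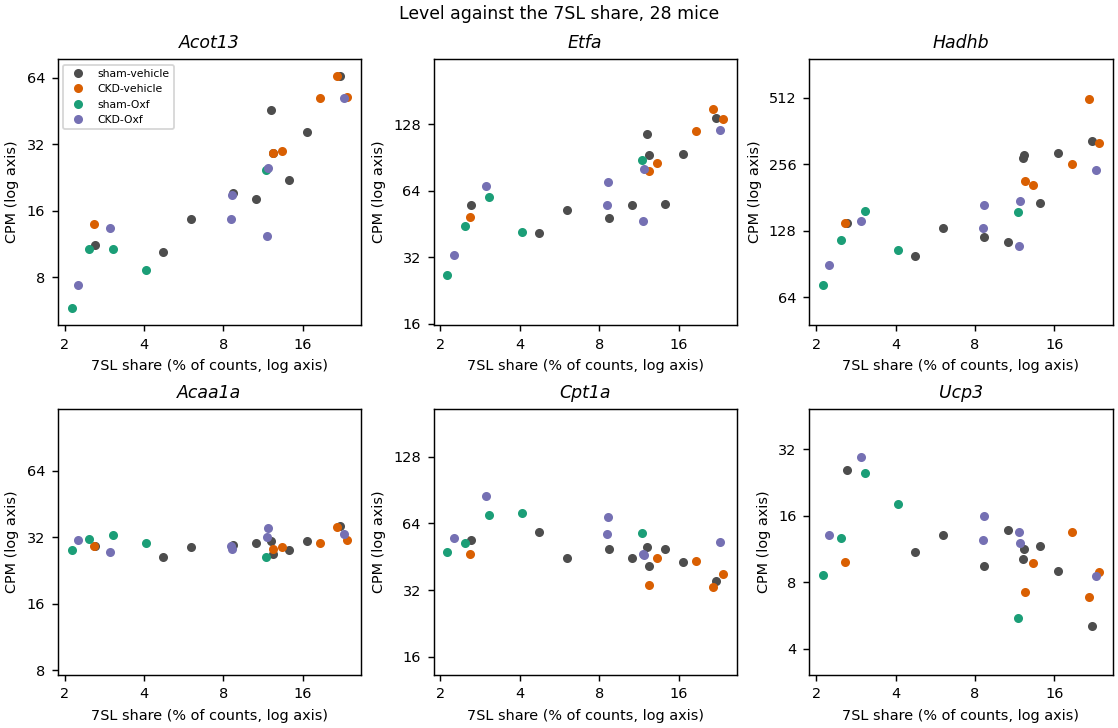
CPM of Acot13, Etfa, Hadhb, Acaa1a, Cpt1a and Ucp3 against the 7SL share of the library (both axes log), 1 point a mouse, coloured by group. Acot13, Etfa and Hadhb climb with the share, Ucp3 and, less so, Cpt1a decline, and Acaa1a stays between 25.98 and 36.02 CPM.

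The 10 sham-vehicle mice were also fitted alone, without any difference in surgery or gavage. There 8 of 44 members passed, against 13.3% of all genes. Of the 18342 genes in that fit, 1494 were called higher and 937 lower. Acot13 (0.81 ± 0.14 (SE, adjusted p = 0.00968)), Acot2, Acads, Hadhb, Etfa and Bdh1 rose. Ucp3 (-0.52 ± 0.11 (SE, adjusted p = 0.018)) and Rxra (-0.24 ± 0.065 (SE, adjusted p = 0.0353)) fell. Etfb (0.46 ± 0.15 (SE, adjusted p = 0.0642)), Ucp2 (-0.24 ± 0.11 (SE, adjusted p = 0.133)) and Slc27a1 (-0.21 ± 0.066 (SE, adjusted p = 0.0529)) did not pass there. These mice are part of the fit over all groups, so their fit is no independent check of it. The 25 members that rose over all groups were also called higher with limma voom, with DESeq2, with 7SL removed before scaling, and with the clock score or mouse number as a covariate. The falls of Cpt1a and Ppargc1b were not called with 7SL removed before scaling or with either covariate, and that of Ucp3 was not called with limma voom. Without mouse 921 the number called was 31 (42.8% of all genes) and without mouse 934 it was 30 (31.9%).

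The members that rose with the 7SL share had shorter transcripts, a property that the choice of members did not use. Their median length was 2047 bases (721 to 4017), against 3656 (2448 to 4317) for the 5 that fell and 3448.5 (1762 to 8788) for the 14 that did not pass. Over the 44 members Spearman's rho of length with slope was -0.634, across genes measured in the same libraries, which are not independent. Cell markers moved with the share too. Of 8 cardiomyocyte markers 5 rose (median 0.29), and all 5 endothelial (median 0.19), all 5 erythroid (1.00) and all 5 tested liver markers (0.96) rose, whereas all 6 white fat markers fell (median -1.80, that is by 1.80 per doubling). Of 5 tested skeletal muscle markers 2 fell (Myh1 and Mylpf, median of the list -1.07), as did 2 of 4 brown fat markers (Otop1 and Elovl3, median -1.14) and 1 of 5 macrophage markers (Cd68, median 0.0003). Retn, Lep, Adipoq, Plin1 and Cidec were each at 0 in 1 sham-Oxf mouse. Lep was also at 0 in 1 CKD-vehicle mouse and 2 CKD-Oxf mice, and Retn in 1 CKD-Oxf mouse. The part of transcript length or of these cell types in the slopes was not tested. Among the 53 other pathway genes 23 rose and 5 fell (median 0.079). Lpl, the lipase that frees fatty acids at the vessel wall (0.52 ± 0.08), and Cd36, the fatty acid uptake protein (0.44 ± 0.06), were among those that rose. The 5 that fell were Angptl4, an inhibitor of that lipase (-0.75 ± 0.16), Acaca, the cytosolic carboxylase (-0.54 ± 0.06), Abcd2 (-0.51 ± 0.11), Pparg (-0.15 ± 0.06) and Acox3 (-0.14 ± 0.04).

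The last question was whether the members followed mouse number within groups, as clock genes do in these libraries. None of the 44 passed with edgeR (0.0371% of all genes did), limma voom (0.128%) or DESeq2 (0.169%). At an unadjusted p under 0.05, 4 members were higher with number (3.03% of genes) and 1 lower (2.47%), and 17 of 44 slopes were above 0 (59.1% of genes). The smallest p was that of Ucp3, whose slope was 0.11 ± 0.032 log2 per mouse number (adjusted p = 0.482). Ppargc1a (0.049 ± 0.019), Slc27a1 (0.04 ± 0.018) and Cpt1a (0.034 ± 0.016) followed, and the lower one was Esrra (-0.045 ± 0.019). In the same fit 5 of 9 clock output genes rose with number. Mouse numbers of the groups do not overlap, so between groups number and treatment cannot be told apart.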

How the data were processed

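The values are raw gene counts (whole numbers of reads) that the authors deposited as 1 table of 28 libraries. Per the submitters' processing notes, FastQC 0.11.7, MultiQC 1.9, STAR 2.6.1d and Subread featureCounts 1.6.3 were used with the mm10 build, and the annotation version, the use of strand and the handling of reads that match several genes are not given in the sources used here. The 7SL genes Rn7s1 and Rn7s2 had nearly equal counts, so multi-mapping reads could count at each copy. Nothing says how mice were housed or batched, and each mouse is 1 replicate.

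Counts were tested in R 4.3.3 with edgeR 4.0.16: TMM factors, filterByExpr (minimum count 10), and a robust quasi-likelihood fit of 4 group means to all 28 libraries, with Benjamini-Hochberg adjustment over 24273 genes and a threshold of 0.05. There were 7 contrasts and 2 slopes within groups, on the log2 share of 3 7SL genes (Rn7s1, Rn7s2 and Rn7s6) and on mouse number. CPM are TMM-scaled, and levels per kb divide by the transcript length. The log2 CPM of the clock score used a prior count of 2. Those of the members, by mouse and in the heat map, used none. Positions, lengths and overlaps come from GENCODE M21, where 45465 of 45513 gene identifiers were found. On simulated counts, the Oxf average recovered 97 of 100 genes changed by 1 log2 unit over 23878 genes, with 8 false calls. Those counts were drawn gene by gene, without shifts that genes of a library share. Changes below 1 log2 unit, such as those of the members called for Oxf, were not simulated.

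Members with full values were those with the smallest p of each contrast and slope and the highest and lowest of each role for Oxf. The members, roles and lists were chosen with earlier results of these data known. Alternatives were other scalings and filters, limma 3.58.1 voom, DESeq2 1.42.0, fits of the compared groups only, covariates and each library left out.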

Additional observations from a re-analysis of the deposited data

Results flagged for a closer look

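Within groups of 5 to 10 mice, a mouse was listed here when its gap to the nearest other mouse took up more of the group's range than Dixon's 95% limit. With 28 measures in 4 groups, 112 groups were tested, of which chance would give about 5.6, and 9 were found.

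The CKD-Oxf mouse 940 had 167.8 CPM of Pdk4 (the next mouse had 77.46) and 29.5 CPM of Ucp3 (the next had 15.99). In sham-vehicle, mouse 906 had 25.75 CPM of Ucp3 (next 13.75). Acot13 was at 24.38 CPM in sham-Oxf mouse 921 (next 10.73) and at 51.84 CPM in CKD-Oxf mouse 934 (next 24.84). Acaa1a was at 36.02 CPM in sham-vehicle mouse 905 (next 30.88) and at 35.8 CPM in CKD-vehicle mouse 914 (next 31.1). Mouse 921 also had the highest 7SL share of sham-Oxf, 11.6% (next 4.077%), and the fewest genes with a count, 15880 after rounding (next 30310).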

How the results depend on the processing

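The limits are few mice a group, a 7SL share and a clock score that differ between the gavages, and counts whose treatment of strand and of multi-mapping reads is not known. All 44 members passed the filter on low counts, and the effect of depth on the tests was not tested. No paired analysis was possible because the groups share no mouse numbers.

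For Oxf averaged over surgery, 3 members were called (2.81% of all genes). The number was 4 with DESeq2 size factors (3.15% of all genes) or upper quartile factors (3.30%) and 1 with 7SL removed before scaling (1.85%). It was 1 with no filter on low counts (0.366%) and 7 with at least 10 counts in every library (10.1%). It was 21 with limma voom (22.0%), 9 with the DESeq2 Wald test (8.79%) and 1 with mouse number centred within groups as a covariate (2.29%). With the 7SL share (0.593%) or the clock score (0%) as a covariate it was 0. Leaving out 1 library gave 0 to 17. For CKD-Oxf minus CKD-vehicle the count of 0 became 15 with voom, 1 with DESeq2, and 0 to 4 without 1 library. CKD-vehicle minus sham-vehicle gave 1 with voom, and surgery averaged over gavage 1 with voom and 2 with DESeq2. The 30 members that followed the 7SL share (37.9% of all genes did) were 8 in sham-vehicle mice only (13.3%). They were 28 to 33 under the other settings, which called 20.9% to 45.8% of all genes, and 28 to 33 without 1 library. The counts for the other contrasts and for mouse number stayed at 0. The cause of these shifts was not tested. The sham-vehicle fit used 10 of the 28 mice, and the effect of that smaller number was not tested either.

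Some medians over the members changed sign with a covariate. With the 7SL share they were 0.072 for sham-Oxf minus sham-vehicle (all genes -0.11), -0.022 for CKD-Oxf minus sham-Oxf and 0.018 for the slope on mouse number. With the clock score they were 0.11 for CKD-Oxf minus CKD-vehicle, 0.038 for sham-Oxf minus sham-vehicle (all genes -0.11), 0.061 for the interaction (-0.25 to 0.017 without 1 library), 0.067 for the Oxf average and 0.061 for mouse number. Single Oxf differences that changed sign with the 7SL share were Mlycd (0.16), Acadvl (0.093), Acot2 (0.072), Ucp2 (-0.19) and Bdh1 (0.24). With the clock score they were Fabp3 (0.11), Mlycd (0.43), Acadvl (0.27), Decr1 (0.013), Etfdh (0.0085), Acaa1a (-0.0011), Acot2 (0.17), Pdk2 (0.081), Ucp2 (-0.10) and Bdh1 (0.18). Acaa1a was -0.013 with 7SL removed, -0.016 with no filter and -0.012 to 0.029 without 1 library. None of these differences passed the threshold where its sign had changed, and the cause was not tested. Fabp3, Decr1 and Etfdh passed, below 0, with limma voom (adjusted p of 0.0158, 0.018 and 0.0276) and without mouse 934 (0.0495, 0.0345 and 0.0362). With limma voom the Ucp3 slope on the 7SL share lost its call (-0.19, adjusted p = 0.0821).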
